A study of Gorilla gorilla gorilla with 14 samples.

Results

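Chromatin accessibility was examined at 41 genes of voltage-gated ion channels in 4 sorted cell types of gorilla cerebral organoids, 3-dimensional cultures in which neural stem cells give rise to neurons much as in the developing cortex. Assay for transposase-accessible chromatin with sequencing (ATAC-seq) was used, in which a transposase inserts adapters where DNA is open, so that reads per region measure openness and not expression. Members were all regions of the deposited count table that had a gorilla (gorGor6) position and one of the 41 genes as the closest gene, which gave 373 of 204249 regions. A region listed at most 1000 bp from its gene is called a promoter region here (37 regions of 34 genes) and any other a distal region (336 regions). The table does not state to which point of a gene the distance runs, and being closest does not show that a region acts on that gene. Of the 41 genes, 38 had a region. CACNA1B, CACNA1G and HCN2 had none, and KCNA1, KCNH1, KCNQ5 and KCND3 had distal regions but no promoter region.

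The organoids were grown from 1 induced pluripotent stem cell line, GC1, and sorted at week 8 of culture. Apical radial glia (aRG, 3 libraries) are stem cells at the ventricular surface, and basal radial glia (bRG, 2 libraries) are stem cells away from it. Basal intermediate progenitors (bIP, 5 libraries) divide to give neurons, and the neurons (N, 4 libraries) are labelled as BCL11B+. No group carries a mutation or a treatment in the labels. All 14 libraries come from the same line. The labels do not say whether replicates were separate cultures, and a p-value therefore rests on the spread among these libraries, which may be only technical. The library numbers form 2 consecutive runs, called the first and the second library series: replicates 1 and 2 of aRG and of N and 1 to 3 of bIP belong to the first, and all others, both bRG libraries included, to the second.

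Voltage-gated channels open when the membrane potential changes. Sodium channels drive the upstroke of the action potential through a pore subunit (SCN1A to SCN9A) with beta subunits (SCN2B to SCN4B) beside it. Calcium channels combine a pore (CACNA1 genes) with beta (CACNB) and alpha2delta (CACNA2D) subunits that govern trafficking to the membrane and gating, potassium channels (KCN genes) repolarize the cell, and HCN channels pass an inward current on hyperpolarization. In the developing cortex, neurons gain most of these currents as they mature, while progenitors and young neurons already hold some of them, SCN3A among them.

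Library totals ranged from 12834983 to 26660427 counts, and 3 counts, taken as the floor of a library, corresponded to 0.114 to 0.208 CPM, the count scaled to a common library total. Promoter regions took 30.4% to 39.1% of the counts of a library. Promoters of radial glia and bIP markers followed the sort of radial glia, bIP and N, while those of neuron markers separated bIP and N little. The summed level of 6 radial glia markers (SOX2, PAX6, HES1, VIM, NES and HOPX) was 297 to 312 CPM in aRG and 244 to 267 CPM in bRG. It was 113.5 to 191 CPM in bIP and 84.2 to 113.6 CPM in N, ranges that just met. That of 5 bIP markers was highest in bIP. The sum of 6 neuron markers was 55.8 to 61.5 CPM in aRG, 51.2 to 53.3 CPM in bRG, 144 to 225 CPM in bIP and 158 to 250 CPM in N. The bIP and N sums overlapped, and 2 of the 6 neuron markers were called higher in N than bIP, with 0 lower. No marker promoter of any list passed the test between bRG and aRG, so this check does not cover that sort. The promoter of BCL11B, the gene of the neuron label, did not pass the test between aRG, bIP and N. Marker sums of other cell types also differed: 7 GABAergic markers summed to 103 to 122 CPM in aRG and 66.9 to 95.1 CPM in N, 3 choroid plexus markers to 23.5 to 37.2 CPM in aRG and 13.8 to 19.2 CPM in N, and the 4 mesenchyme markers with a promoter region to 55.5 to 61.3 CPM in aRG and 25.5 to 32.1 CPM in N. Their part in the results below was not tested, and in bulk libraries fewer cells of a type and less accessibility per cell cannot be told apart. Replicates 1 and 2 of aRG and of bIP differed by little more than sampling noise (chi-square per degree of freedom 1.08 and 1.09), against 1.49 to 12.2 for the other pairs. They were kept as separate libraries, and values with each pair summed are given where they change a count by over 1.5 times.

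Most channel promoters were accessible in all 4 cell types, and more of them were higher than lower in neurons. The median over the 37 promoters of the mean level was 18.5, 18.8, 19.7 and 22.4 CPM in aRG, bRG, bIP and N. Per kilobase of region, the lowest mean level in neurons was at CACNA1I (1.59 CPM per kb) and the highest at SCN3B (21.7 CPM per kb). Between bIP and aRG, 5 promoters were higher and 0 lower at an adjusted p below 0.05 (edgeR's quasi-likelihood test), when 11.5% of all tested promoters were higher and 18.4% lower. For the members this is 13.5% and 0%, with a median log2 fold change of 0.06, against -0.15 over all promoters. Between N and bIP, 12 promoters of 11 genes were higher and 4 lower (32.4% and 10.8%), beside 14.3% and 22.9% of all promoters, and the median was 0.15 against -0.13. Between N and aRG, 16 were higher and 4 lower (43.2% and 10.8%), beside 17.2% and 35.1%, with a median of 0.22 against -0.26. Only 1 promoter differed by at least 2-fold between bIP and aRG, 3 between N and bIP and 6 between N and aRG, all of them higher. Such changes were not counted over all promoters. None of the 3 comparisons called the other 14 promoters.

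**Figure D1:**
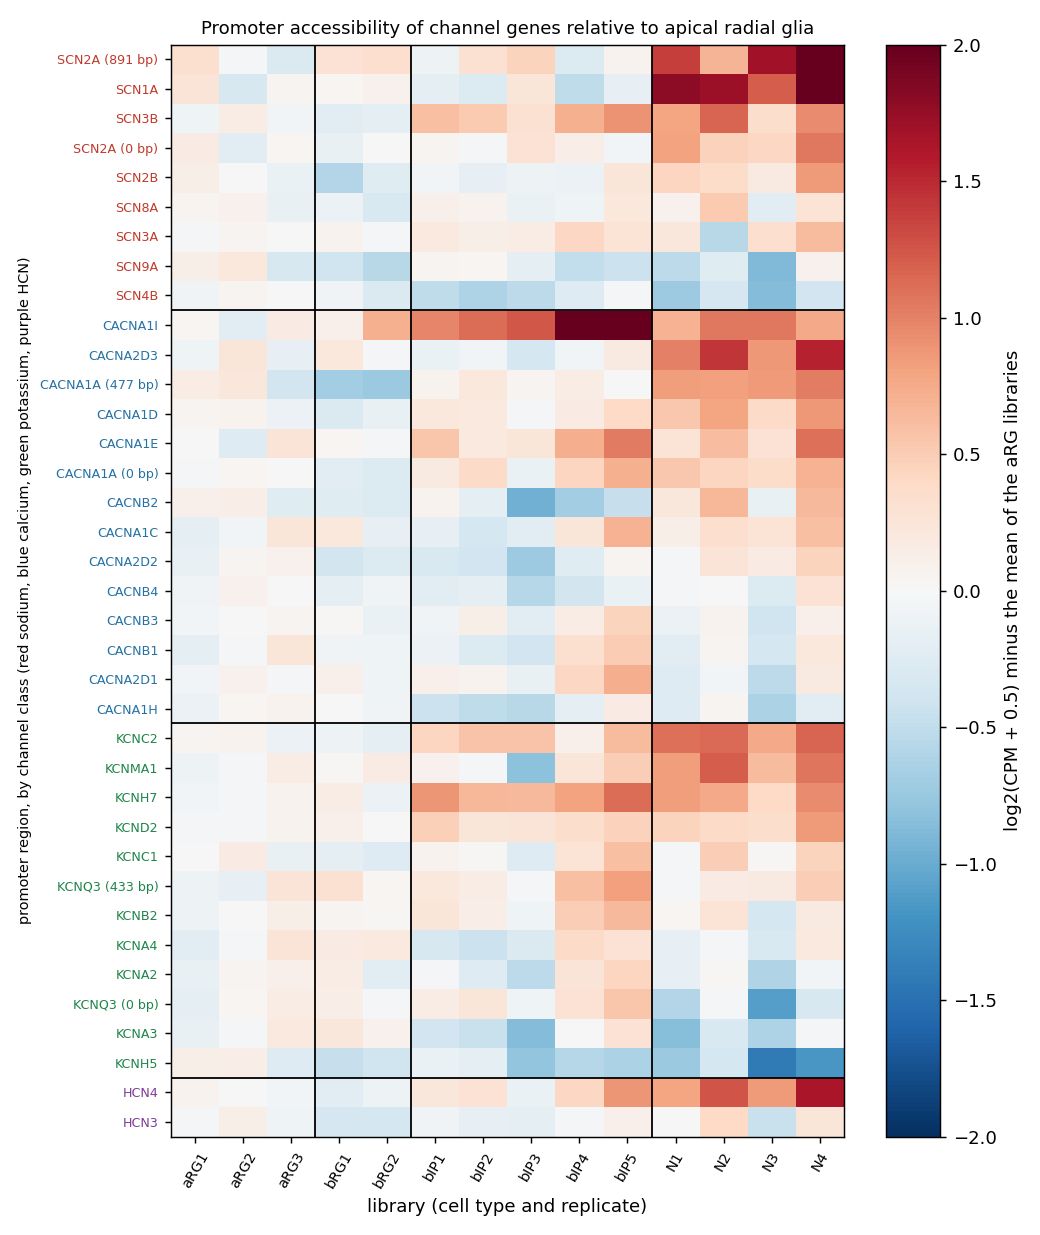
Promoter accessibility of the channel genes in each library, as log2(CPM + 0.5) minus the mean of the aRG libraries. Rows are the 37 promoter regions by class and ordered by the fold change of N against aRG, columns are the 14 libraries, and colours saturate at 2. The darkest red lies in the N libraries at SCN1A and at the SCN2A region listed at 891 bp, and in bIP at CACNA1I.

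The number of promoter calls depended on how libraries were scaled. With loess offsets, which fit the scaling to the level of a region, 10 promoters were higher and 3 lower between bIP and aRG, beside 15.4% and 24.8% of all promoters in that fit. They were 25 and 2 between N and bIP, beside 40.5% and 19.0%, and 31 and 1 between N and aRG, beside 37.4% and 25.5%, so that this scaling moved the calls of all promoters upward too. With the size factors of DESeq2 the split between bIP and aRG was 3 higher and 2 lower, beside 10.2% and 20.6%. With only regions of at least 10 CPM in 2 libraries fitted, 33 of the 37 were tested. Their split was then 8 and 7 for bIP and aRG, beside 9.46% and 46.3% of all promoters, and 20 and 1 for N and bIP, beside 38.1% and 16.2%. Within the first library series, 6 promoters were higher and 5 lower in bIP than in aRG, 15 and 0 in N than in bIP, and 15 and 4 in N than in aRG, beside 12.1% and 27.2%, 17.4% and 16.0%, and 19.2% and 29.3% of all promoters. Within the second series they were 1 and 0, 6 and 4, and 6 and 2, beside 6.53% and 6.1%, 10.4% and 22.2%, and 11.1% and 20.3%. Single libraries mattered as well: the 5 promoters higher in bIP than aRG became 2 without aRG replicate 2, aRG replicate 3 or bIP replicate 4, and 3 without bIP replicate 5. In that order, 8.25%, 10.1%, 9.19% and 10.7% of all promoters were then higher. The 16 higher in N than aRG became 10 without N replicate 4 or aRG replicate 2, and the 4 lower became 2 without N replicate 1. All promoters in these fits gave 14.6% and 13.5% higher, and 29.7% lower. The 4 lower in N than bIP became 2 without N replicate 1 or 3 or without bIP replicate 1, 2, 4 or 5. In those fits 18.9% to 21.9% of all promoters were lower. With the close replicate pairs summed, 2 were higher in bIP than aRG, 9 higher in N than aRG and 2 lower in N than bIP. The same shares of all promoters were 7.94%, 13.2% and 20.3%.

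Between the library series, with cell type held in the model, 4 of 37 channel promoters were higher in the second series, CACNA1C (0.47), KCNQ3 at 433 bp (0.44), KCNA3 (0.46) and KCNA4 (0.41), and KCNH5 was lower (-0.46), beside 7.67% and 4.21% of all promoters. Of the distal regions, 36 were higher and 17 lower, beside 9.54% and 6.68%. The change from bIP to N differed between the series at 0 channel promoters and 28 distal regions, beside 3.32% of all promoters and 7.26% of all distal regions.

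Among the sodium channel genes, promoters of the pore genes SCN1A and SCN2A were higher in neurons than in all 3 progenitor types, and that of the beta subunit gene SCN3B was higher from bIP onward. Of 9 sodium promoters, 1 was higher in bIP than aRG, 4 higher in N than bIP with none lower, and 5 higher and 1 lower in N than aRG. Over all promoters, higher and lower, these comparisons gave 11.5% and 18.4%, 14.3% and 22.9%, and 17.2% and 35.1%. SCN1A encodes a pore subunit known from inhibitory neurons and from genetic epilepsies. Its promoter (chr2B:52847127-52848625) held 2.37, 1.43 and 2.01 CPM in the aRG libraries, 1.97 and 2.06 in bRG, 1.63, 1.49, 2.36, 1.19 and 1.64 in bIP, and 7.84, 7.41, 5.04 and 9.24 in N. Each N library lay above each progenitor library, and the progenitor groups overlapped. The log2 fold change of N against bIP was 2.18 ± 0.22 (SE, adjusted p = 1.14e-08), with 2.10 within the first and 2.33 within the second series.

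SCN2A encodes the main pore subunit of young excitatory neurons, and its 2 promoter regions differed in level and in fold change. The region listed at 0 bp (chr2B:51990380-51991836) held 9.56, 7.30 and 8.73 CPM in aRG, 7.63 and 8.39 in bRG, 8.82, 8.22, 10.5, 9.37 and 8.11 in bIP, and 15.2, 11.9, 11.5 and 18.3 in N. The N values lay above all others, and the log2 fold change of N against bIP was 0.66 ± 0.17 (adjusted p = 0.00211). The neighbouring region listed at 891 bp (chr2B:51991947-51992675) was nearly closed in progenitors. It held 0.790, 0.499 and 0.343 CPM in aRG, 0.758 and 0.796 in bRG, 0.454, 0.777, 0.902, 0.354 and 0.580 in bIP, and 2.18, 1.16, 2.79 and 3.80 in N. Here too the N libraries stood above all others, and the log2 fold change was 2.05 ± 0.34 (adjusted p = 1.22e-05), with 1.40 in the first and 2.81 in the second series. Against aRG, the change of the region at 0 bp was 0.73 ± 0.20 (adjusted p = 0.00254), but this call was lost without N replicate 4 (0.42, adjusted p = 0.0632) or aRG replicate 2 (0.44, adjusted p = 0.103). Neither region passed the test between bIP and aRG.

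SCN3A, the pore gene known from fetal cortex and from malformations of cortical folding, had a promoter of similar level in all groups: 9.61 ± 0.34 CPM (SD, n = 3) in aRG and 9.81 ± 0.49 CPM (n = 2) in bRG, 11.4 ± 1.0 CPM (n = 5) in bIP and 11.3 ± 3.7 CPM (n = 4) in N. The N libraries spread from 6.39 to 15.2 CPM and overlapped those of bIP, and the adjusted p of N against bIP was 0.827. SCN8A, a pore gene of the axon initial segment, and SCN9A, a pore gene of sensory neurons, passed no test either, with mean levels of 26.3 and 30.6 CPM in aRG and 29.9 and 23.7 CPM in N.

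The 3 beta subunit genes each behaved differently. SCN3B (chr11:106799207-106801170) held 22.1, 26.1 and 22.7 CPM in aRG, 20.3 and 20.8 in bRG, 36.1, 34.0, 29.2, 38.7 and 44.2 in bIP, and 40.9, 53.1, 30.1 and 46.0 in N. All bIP and N libraries lay above all aRG and bRG libraries, while bIP and N overlapped. The log2 fold change of bIP against aRG was 0.63 ± 0.19 (adjusted p = 0.00731). Leaving out aRG replicate 2 ended this call (adjusted p = 0.0658), as did leaving out aRG replicate 3 (0.0504) or bIP replicate 4 (0.0808). N against aRG gave 0.85 ± 0.19 (adjusted p = 0.000459). SCN2B was higher in N than bIP by 0.53 ± 0.18 (adjusted p = 0.0122), from 7.40 ± 0.96 to 10.8 ± 2.4 CPM, but not without N replicate 4 (0.36, adjusted p = 0.101) or bIP replicate 4 (adjusted p = 0.0608). SCN4B was the sodium promoter that was lower, by -0.60 ± 0.18 in N against aRG (adjusted p = 0.00568). Its levels were 24.0, 26.3 and 25.4 CPM in aRG and 15.1, 19.9, 13.6 and 19.3 in N, without overlap. With loess offsets its change was -0.16 (adjusted p = 0.178).

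**Figure D2:**
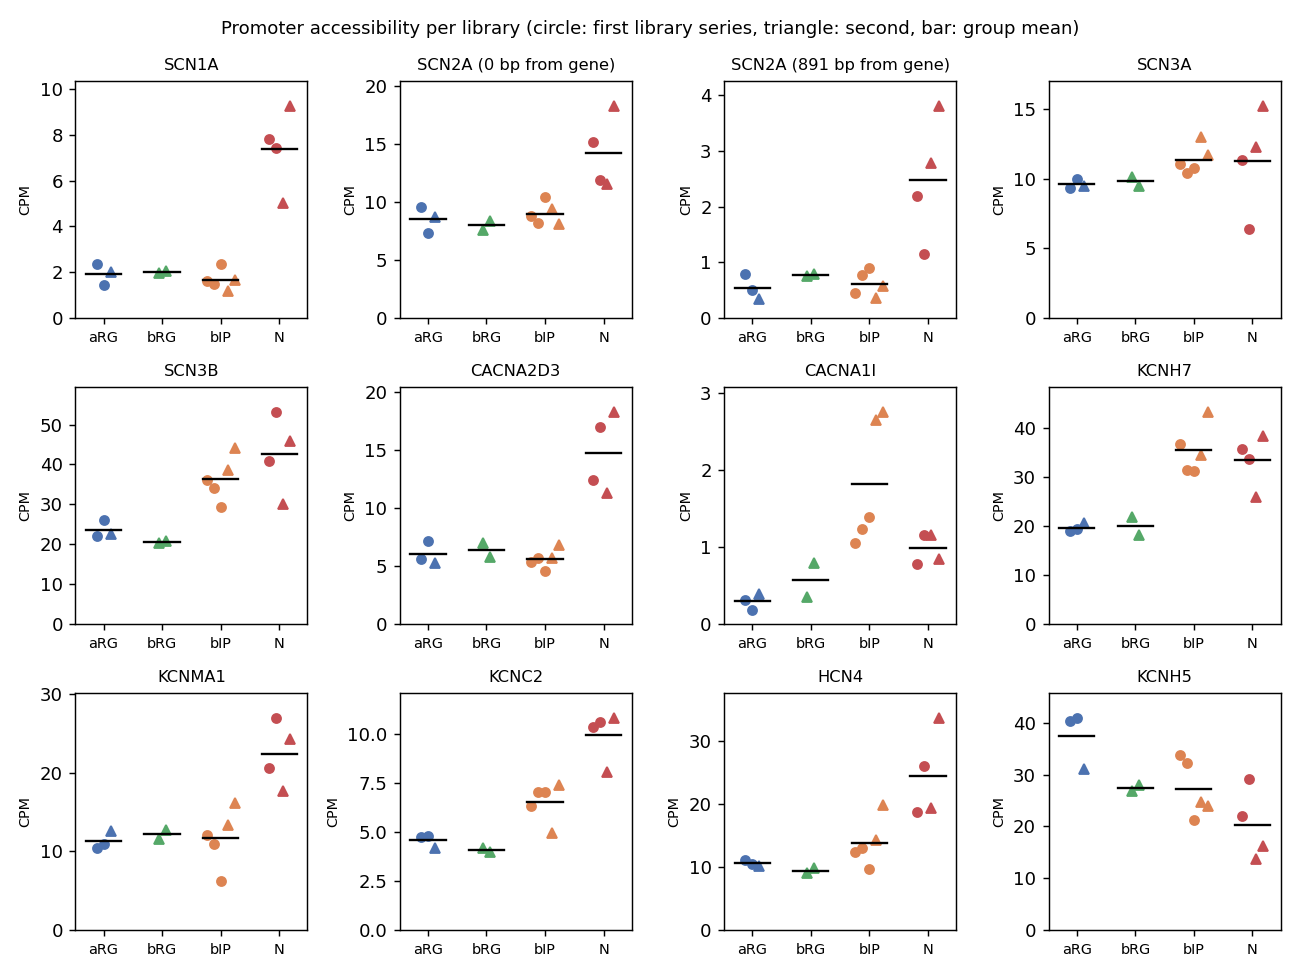
CPM of 12 promoter regions in each library, by cell type. Circles are the first and triangles the second library series, and a bar is the mean of a group. N libraries stand above all others at SCN1A, both SCN2A regions, CACNA2D3 and KCNC2, SCN3B and KCNH7 step up at bIP, CACNA1I is highest in bIP, and KCNH5 is highest in aRG.

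Calcium channel promoters that passed the test in N against aRG were all higher in neurons, though most did not pass, and the T-type gene CACNA1I was highest in bIP. Of 14 calcium promoters, 2 were higher in bIP than aRG, 5 higher and 2 lower in N than bIP, and 6 higher and 0 lower in N than aRG. Beside these stand 11.5% and 18.4%, 14.3% and 22.9%, and 17.2% and 35.1% of all promoters, higher and lower. CACNA1I encodes a low-voltage-activated (T-type) pore. Its promoter (chr22:22070618-22071236), narrow and low, held 0.316, 0.187 and 0.392 CPM in aRG, 0.354 and 0.796 in bRG, 1.06, 1.23, 1.39, 2.65 and 2.75 in bIP, and 0.780, 1.16, 1.15 and 0.845 in N. Every bIP library exceeded every aRG and bRG library, and bIP and N overlapped at 1.06 to 1.16 CPM. The log2 fold change was 2.46 ± 0.38 for bIP against aRG (adjusted p = 7.82e-06) and -0.90 ± 0.29 for N against bIP (adjusted p = 0.00939). The first held within both series (2.17 and 2.77), and the second was -0.35 within the first series (adjusted p = 0.404) and -1.44 within the second (adjusted p = 0.00515). The aRG levels are close to the floor. The other T-type gene with a region, CACNA1H, passed no test, with a mean of 27.8 CPM in aRG, 22.8 in bIP and 23.5 in N.

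Among the high-voltage-activated pores, CACNA1A, which encodes the P/Q-type channel of presynaptic release sites, had 2 promoter regions. The one listed at 477 bp (chr19:9000150-9000990) held 3.72, 3.99 and 2.45 CPM in aRG, 1.87 and 1.78 in bRG, 3.52, 3.95, 3.47, 3.76 and 3.33 in bIP, and 6.31, 6.25, 6.39 and 7.27 in N. No N library overlapped with another group, and the log2 fold change of N against bIP was 0.88 ± 0.18 (adjusted p = 0.000199), with 0.80 and 0.94 in the 2 series. The other region had no call in either step. It was 0.51 ± 0.20 higher in N than aRG (adjusted p = 0.0272), a call lost without any of the 3 aRG libraries or without N replicate 1, 3 or 4 (adjusted p from 0.0636 to 0.195). CACNA1E, the R-type pore, was higher in bIP than aRG by 0.55 ± 0.20 (adjusted p = 0.0246), with 10.0, 8.30 and 12.01 CPM in aRG and 14.9, 11.5, 11.9, 16.9 and 21.0 in bIP. These groups overlapped, and the call was lost without aRG replicate 2 (0.34, adjusted p = 0.284), aRG replicate 3, or bIP replicate 1, 4 or 5 (adjusted p from 0.0543 to 0.118). The L-type genes differed: CACNA1D was higher in N than bIP by 0.47 ± 0.16 (adjusted p = 0.0124), which was lost without N replicate 4 (adjusted p = 0.0862) or bIP replicate 4 (0.0551). CACNA1C, with mean levels of 18.5, 18.8, 19.7 and 23.4 CPM in aRG, bRG, bIP and N, did not pass in either step, with 0.24 ± 0.16 for N against bIP (adjusted p = 0.214). That change did pass with loess offsets (0.61, adjusted p = 2.54e-05), with the filter at 10 CPM (0.53, adjusted p = 0.000219), within the first series (0.49, adjusted p = 0.00966) and without bIP replicate 5 (0.38, adjusted p = 0.0489).

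The largest change among the auxiliary calcium subunits was at CACNA2D3, an alpha2delta gene. Its promoter (chr3:54030408-54032376) held 5.61, 7.11 and 5.30 CPM in aRG, 6.98 and 5.81 in bRG, 5.37, 5.70, 4.58, 5.70 and 6.81 in bIP, and 12.4, 17.0, 11.3 and 18.3 in N. The progenitor groups overlapped one another, and N stood apart with a log2 fold change of 1.38 ± 0.18 against bIP (adjusted p = 6.29e-07), 1.49 in the first and 1.23 in the second series. CACNB2, a beta subunit gene, was higher in N than bIP by 0.84 ± 0.19 (adjusted p = 0.000681), with 16.3, 13.8, 7.77, 9.46 and 11.2 CPM in bIP and 18.4, 25.1, 14.1 and 24.7 in N. N replicate 3 lay inside the bIP range, the aRG libraries (16.8, 17.2 and 13.1 CPM) overlapped both groups, and N against aRG did not pass (adjusted p = 0.0881). CACNA2D2 was higher in N than bIP by 0.51 ± 0.16 (adjusted p = 0.0104), a call lost without bIP replicate 4 (adjusted p = 0.0526). CACNA2D1 was lower in N than bIP by -0.41 ± 0.17 (adjusted p = 0.0404), with overlapping groups, and the call was lost without N replicate 1 or 3 or bIP replicate 1, 2, 4 or 5 (adjusted p from 0.0555 to 0.151), with -0.16 in the first series (adjusted p = 0.450). CACNB1, CACNB3 and CACNB4 passed no test in these comparisons.

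Called potassium channel promoters went in both directions, as did those of all genes. Of 12, 2 were higher in bIP than aRG, 2 higher and 2 lower in N than bIP, and 4 higher and 3 lower in N than aRG. All promoters gave 11.5% and 18.4%, 14.3% and 22.9%, and 17.2% and 35.1%, higher and lower. For N against bIP the potassium shares, 16.7% and 16.7%, were near those of all promoters. KCNH7, of the ether-a-go-go related (ERG) family, rose at the step to bIP. Its promoter (chr2B:49529766-49531788) held 19.0, 19.4 and 20.5 CPM in aRG, 21.9 and 18.1 in bRG, 36.7, 31.5, 31.2, 34.5 and 43.1 in bIP, and 35.6, 33.6, 25.9 and 38.2 in N. No bIP or N library overlapped with the radial glia, and the log2 fold change of bIP against aRG was 0.84 ± 0.17 (adjusted p = 0.000255), with 0.80 in the first and 0.92 in the second series (adjusted p = 0.0535 there). N against bIP was -0.09 ± 0.15 (adjusted p = 0.644).

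KCNC2, a Kv3 gene of fast-spiking neurons, was higher at each step. Its promoter (chr12:71111145-71113663) held 4.74, 4.80 and 4.17 CPM in aRG, 4.20 and 3.98 in bRG, 6.32, 7.06, 7.01, 4.95 and 7.39 in bIP, and 10.4, 10.6, 8.07 and 10.8 in N. The 3 levels did not overlap. The change was 0.53 ± 0.19 for bIP against aRG (adjusted p = 0.0280) and 0.62 ± 0.17 for N against bIP (adjusted p = 0.00284, and 0.104 within the second series). The call of the first step was lost without any of the 3 aRG libraries or bIP replicate 2, 4 or 5 (adjusted p from 0.0554 to 0.208), and N against aRG was 1.15 ± 0.20 (adjusted p = 1.98e-05). KCNMA1, the gene of the calcium-activated BK channel, was higher in N: its promoter (chr10:29029544-29031604) held 10.4, 10.9 and 12.6 CPM in aRG, 11.5 and 12.7 in bRG, 12.1, 10.9, 6.17, 13.4 and 16.1 in bIP, and 20.6, 26.9, 17.7 and 24.3 in N. N lay above all progenitors, by 0.93 ± 0.19 against bIP (adjusted p = 0.000215), with 1.27 in the first series and 0.50 in the second (adjusted p = 0.127). KCND2, a gene of the transient A-type current, was higher in N than aRG by 0.52 ± 0.17 (adjusted p = 0.0104), which was lost without N replicate 4 (0.24, adjusted p = 0.253) or aRG replicate 2 (0.33, adjusted p = 0.187).

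Promoters of KCNH5, KCNQ3 and KCNA3 were lower in neurons. KCNH5, an ether-a-go-go gene, was open most in aRG. Its promoter (chr14:43755822-43757456) held 40.4, 40.9 and 31.1 CPM in aRG, 26.9 and 28.0 in bRG, 33.9, 32.4, 21.2, 24.8 and 23.9 in bIP, and 22.0, 29.1, 13.6 and 16.3 in N. All N libraries lay below all aRG libraries, and the log2 fold change was -0.84 ± 0.19 (adjusted p = 0.000305). Against bRG it was -0.71 ± 0.22 (adjusted p = 0.00801), not past the threshold without bRG replicate 2 (adjusted p = 0.0571) or with no series term (-0.44, adjusted p = 0.154). N against bIP gave -0.42 ± 0.17 (adjusted p = 0.0334), a call lost without N replicate 1, 3 or 4 or bIP replicate 1, 2, 4 or 5 (adjusted p from 0.0621 to 0.0917). It was -0.08 with loess offsets (adjusted p = 0.442), -0.14 with the filter at 10 CPM (adjusted p = 0.207) and -0.19 within the first series (adjusted p = 0.411).

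KCNQ3, a gene of the M-current that damps firing, had 2 promoter regions of unequal change. The one listed at 0 bp (chr8:128343072-128343862) held 20.2, 21.7, 17.3, 22.4 and 27.1 CPM in bIP and 12.1, 17.8, 8.26 and 14.5 in N, with -0.73 ± 0.19 (adjusted p = 0.00195) and only 1 N library inside the bIP range. With loess offsets this was -0.37 (adjusted p = 0.0101). Against aRG the change of this region was -0.49 ± 0.21 (adjusted p = 0.0448), which was lost within the first series (-0.20, adjusted p = 0.355), with loess offsets (-0.08, adjusted p = 0.617), with the filter at 10 CPM (-0.24, adjusted p = 0.108), with no series term (adjusted p = 0.0626), and without N replicate 1 (adjusted p = 0.102) or aRG replicate 3 (adjusted p = 0.171). Within the first series the change from bIP to N was -0.41 (adjusted p = 0.0528), and within the second -1.12 (adjusted p = 0.00201). The one at 433 bp had means of 29.3 CPM in bIP and 25.9 in N and did not pass (adjusted p = 0.260). Between bIP and aRG it was 0.34 (adjusted p = 0.0968), and it passed with loess offsets (0.46, adjusted p = 0.000103), with the filter at 10 CPM (0.32, adjusted p = 0.00147) and without bIP replicate 3 (0.39, adjusted p = 0.0484). KCNA3, a Kv1 gene best known from lymphocytes, was lower in N than aRG by -0.52 ± 0.20 (adjusted p = 0.0239). It did not pass without N replicate 1 (adjusted p = 0.0893) or aRG replicate 1 (0.0557), and the change was -0.07 with loess offsets. KCNA2, KCNA4, KCNB2 and KCNC1 passed no test in these 3 comparisons.

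The promoter of HCN4, a pacemaker channel gene, was higher in neurons. It (chr15:48424368-48426430) held 11.1, 10.5 and 10.2 CPM in aRG, 9.05 and 9.79 in bRG, 12.4, 13.1, 9.64, 14.2 and 19.9 in bIP, and 18.7, 26.0, 19.4 and 33.7 in N. N lay above aRG and bRG throughout, and bIP replicate 5 reached into the N range. The change was 0.80 ± 0.18 for N against bIP (adjusted p = 0.000587, and 0.0703 within the second series) and 1.14 ± 0.22 for N against aRG (adjusted p = 5.81e-05). HCN3 passed no test, with 35.5 ± 2.8 CPM in aRG against 27.8 ± 0.4 CPM in bRG, 33.8 ± 2.8 CPM in bIP and 37.5 ± 9.0 CPM in N. Its change from bIP to N was 0.15 ± 0.16 (adjusted p = 0.451), but 0.45 with loess offsets (adjusted p = 1.06e-05) and 0.42 with the filter at 10 CPM (adjusted p = 6.81e-05).

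No channel region passed the test between basal and apical radial glia. edgeR called 0 of 37 promoters and 0 of 334 distal regions, where 0% of all regions were called, with no adjusted p under 0.987 among the members. Without adjustment, p was below 0.05 at 2 promoters and 16 distal regions, and DESeq2's Wald test called 0 members. With bRG as the reference in place of aRG, 7 promoters were higher and 0 lower in bIP, beside 10.9% and 10.1% of all promoters. In N, 19 were higher and 1 lower, beside 16.6% and 21.8%. These comparisons share the bIP and N libraries with those above, and bRG has 2 libraries of 1 series. The 7 became 3 without bIP replicate 4, 2 without bRG replicate 1 and 1 without bRG replicate 2. Of all promoters 8.26%, 6.98% and 7.36% were then higher. The 19 became 12 without N replicate 4, and the 1 lower became 2 without N replicate 2 and 0 without bRG replicate 2. All promoters in these fits gave 13.1% higher, and 24.8% and 16.8% lower. The promoters 2-fold or more higher in N than bRG were 9, against 6 for N and aRG, with no such count over all promoters.

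Of 68 other genes of these channel families and their partners, 42 had a promoter region, all tested. Between bIP and aRG 6 were higher and 9 lower, beside 11.5% and 18.4% of all promoters. Between N and bIP it was 11 and 6, beside 14.3% and 22.9%, and between N and aRG 11 and 11, beside 17.2% and 35.1%, with median log2 fold changes of -0.07, 0.01 and -0.02. The smallest p-values of N against bIP belonged to CACNG3, a regulatory gamma subunit gene (1.70 ± 0.20), the potassium channel genes KCNH4 (1.52 ± 0.19), KCNH3 (1.64 ± 0.24), KCNA6 (0.79 ± 0.17) and KCNS2 (0.98 ± 0.21), and KCNIP3, a potassium channel interacting protein gene, which was lower (-0.91 ± 0.16).

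Of 336 distal regions, 334 passed the filter on low counts, at 1.124 to 212.338 kb from the gene (median 45.6 kb). Their median mean level was 1.21 CPM in aRG as in bRG, 1.99 CPM in bIP and 2.25 CPM in N. Between bIP and aRG, 122 were higher and 44 lower (36.5% and 13.2%), beside 25.5% and 21.1% of all distal regions. Between N and bIP, 123 were higher and 84 lower (36.8% and 25.1%), beside 30.6% and 26.7%. Between N and aRG, 170 were higher and 63 lower (50.9% and 18.9%), beside 39.5% and 28.4%. Median log2 fold changes of the members were 0.38, 0.06 and 0.86, against 0.08, 0.03 and 0.30 over all distal regions. Changes of at least 4-fold were found upward at 35, 36 and 77 regions and downward at 4, 8 and 17. Such changes were not counted over all distal regions, so these numbers describe the members alone. The quartiles of the log2 fold change of N against aRG over all distal regions were -0.86 and 1.57. Against bRG, 102 were higher and 39 lower in bIP, beside 21.5% and 16.7%, and 149 and 62 in N, beside 34.1% and 26.2%. The 39 became 24 without bRG replicate 1, when 10.9% of all distal regions were lower. Within the first series, with 323 tested, the counts were 131 and 46, 121 and 77, and 175 and 64. All distal regions there gave 28.3% and 22.8%, 28.1% and 27.2%, and 39.8% and 30.0%. Within the second series, with 336 tested, the counts were 73 and 23, 109 and 71, and 120 and 45. All distal regions in that series gave 14.6% and 11.4%, 27.1% and 20.7%, and 28.7% and 19.6%.

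By class, calcium genes held 140 of the tested distal regions, potassium genes 154, sodium genes 35 and HCN genes 5. In bIP against aRG, 14 sodium regions were higher and 4 lower, 56 calcium regions higher and 16 lower, 48 potassium regions higher and 24 lower, and 4 HCN regions higher, beside the 25.5% and 21.1% of all distal regions. In N against bIP the splits were 17 and 7, 48 and 40, 55 and 37, and 3 and 0, beside 30.6% and 26.7%. The calcium split there, 34.3% and 28.6%, is close to that of all distal regions. CACNA2D1 alone held 8 of the 48 higher and 20 of the 40 lower calls, so this split rests much on 1 gene. In N against aRG they were 21 and 6, 67 and 25, 78 and 32, and 4 and 0, beside 39.5% and 28.4%. Regions higher in N than bIP lay at a median of 36.5 kb from the gene and those lower at 71.1 kb, a description with no test. CACNA2D1 and KCNQ3, with regions out to 212.338 and 180.824 kb, held 20 and 17 of the 84 lower regions. They held 8 and 3 of the 123 higher regions. Distances over all distal regions were not compared.

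The regions were unevenly spread over genes. CACNA2D1 had 45, KCNQ3 36 and CACNA1E 25, so that 3 genes held 106 of the 336. Of 35 genes with tested distal regions, 19 had regions called in both directions between N and aRG, 12 had only higher and 2 only lower calls (SCN4B and CACNA1D), and 2 had none (CACNB3 and CACNA2D3). The same was not counted over all genes, so this split describes the members alone. Of all distal regions 39.5% were higher and 28.4% lower there. CACNA2D1 and KCNQ3 had most of their higher calls at the step to bIP: 20 higher and 3 lower for CACNA2D1, and 15 and 4 for KCNQ3. At the step from bIP to N their lower calls outnumbered the higher, 20 to 8 and 17 to 3. CACNB2 and KCNH5 had theirs at the later step, with 9 higher and 1 lower and 12 higher and 2 lower in N than bIP. For KCNH5 these calls went the other way from its promoter. SCN3A, whose promoter passed no test, had 7 of 11 distal regions higher in bIP than aRG, 6 higher and 2 lower in N than bIP, and 8 higher and 0 lower in N than aRG. These 2 steps share the bIP libraries.

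**Figure D3:**
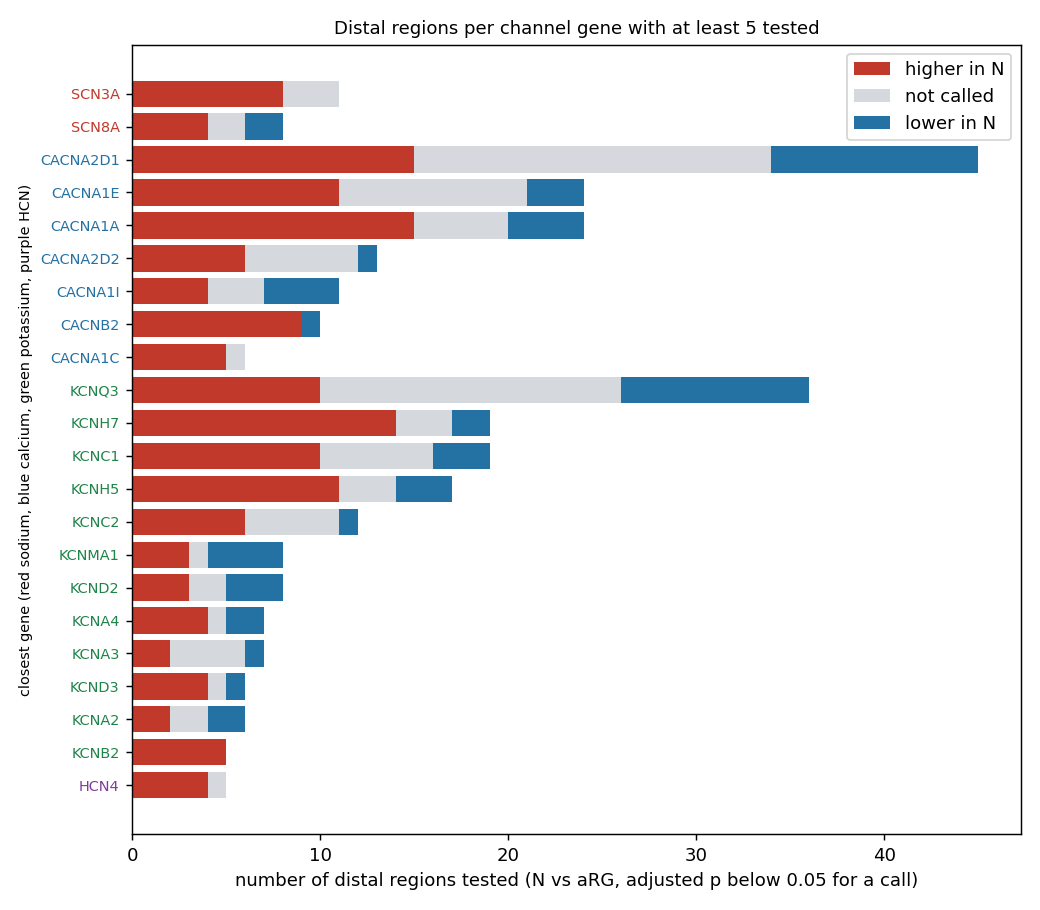
Number of tested distal regions per closest gene, for genes with at least 5, split by the result of N against aRG at an adjusted p below 0.05. Bars show regions higher in N in red, regions with no call in grey and regions lower in N in blue: CACNA2D1 has 15 higher and 11 lower, KCNQ3 10 and 10, and all 5 of KCNB2 are higher.

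Near sodium channel genes, 2 adjacent regions assigned to SCN3A were highest in bIP. The region 82.2 kb away (chr2B:51817493-51818308) held 0.474, 0.374 and 0.981 CPM in aRG, 1.06 and 0.937 in bRG, 2.91, 3.30, 4.65, 6.41 and 7.63 in bIP, and 1.72, 1.02, 1.83 and 0.938 in N. All bIP libraries exceeded all others, with log2 fold changes of 2.95 ± 0.33 for bIP against aRG (adjusted p = 6.73e-08) and -1.82 ± 0.26 for N against bIP (adjusted p = 1.95e-06). Its neighbour (chr2B:51818692-51819466) had means of 1.01, 1.17, 6.33 and 2.37 CPM in aRG, bRG, bIP and N. Another region of SCN3A at 35.1 kb (chr2B:51936355-51938552) was instead highest in neurons, with 6.28, 6.54, 5.90, 9.33 and 6.76 CPM in bIP and 19.9, 11.2, 20.5 and 34.6 in N (1.54 ± 0.20, adjusted p = 4.84e-07). Beside SCN3B, a region 2.2 kb from the gene (chr11:106798005-106798874) rose at both steps, with means of 0.960, 0.658, 3.55 and 10.5 CPM in aRG, bRG, bIP and N. Its changes were 1.86 ± 0.25 and 1.53 ± 0.19.

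Single regions near SCN4B and SCN8A were lower in later types. A region 3.4 kb from SCN4B (chr11:101309681-101310362) held 6.64, 8.36 and 6.96 CPM in aRG, 6.47 and 5.72 in bRG, 3.63, 3.24, 3.47, 2.96 and 2.90 in bIP, and 1.33, 1.43, 1.30 and 0.657 in N, without overlap between these levels. It fell by 1.16 on the log2 scale from aRG to bIP (SE 0.20, adjusted p = 3.18e-05) and by 1.45 from bIP to N (SE 0.22). A second SCN4B region (chr11:101310948-101311216) fell by 2.10 at the later step. A region 2.3 kb from SCN8A (chr12:33398402-33398623) was -2.13 ± 0.35 lower in bIP than aRG, at 1.86 against 0.412 CPM, and within the second series alone its adjusted p was 0.0642. The 8 distal regions of SCN8A went both ways, with 2 higher and 1 lower in bIP than aRG and 4 higher and 2 lower in N than aRG.

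Among calcium genes, 2 CACNA2D1 regions reached high levels in bIP. The one 107.4 kb away (chr7:89620948-89621936) held 2.61, 2.25 and 3.78 CPM in aRG, 4.80 and 4.08 in bRG, 20.8, 23.4, 21.0, 21.1 and 20.8 in bIP, and 14.4, 16.8, 11.9 and 18.7 in N, a change of 2.89 ± 0.22 from aRG to bIP (adjusted p = 5.88e-10). The one at 178.1 kb (chr7:89691529-89693344) went from a mean of 5.56 to 36.6 CPM and was 11.9 CPM in N. Another, at 13.3 kb (chr7:89529781-89531001), was highest in bIP: 1.07, 0.936 and 2.06 CPM in aRG, 2.07 and 1.83 in bRG, 15.4, 15.7, 13.6, 11.8 and 11.1 in bIP, and 2.49, 2.31, 2.02 and 1.27 in N. No library of another group came near the bIP range, and N against bIP was -2.72 ± 0.23 (adjusted p = 6.21e-10).

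The largest change in neurons among all named regions was 41.4 kb from CACNA1A (chr19:9040773-9041603). It held 0.277, 0.312 and 0.441 CPM in aRG, 0.455 and 0.187 in bRG, 0.303, 0.259, 0.624, 0.265 and 0.290 in bIP, and 6.70, 5.16, 5.52 and 13.6 in N. All progenitor libraries were near the floor and below all N libraries, and N against bIP was 4.45 ± 0.33 (adjusted p = 8.75e-11). Another CACNA1A region at 96.8 kb (chr19:8901692-8902752) fell from 7.19 ± 0.92 CPM in aRG to 2.01 ± 0.31 in bIP (-1.85 ± 0.22). CACNB2 had regions of opposite course. The one 4.1 kb from the gene (chr10:18171122-18172245) held 45.9, 49.0 and 25.1 CPM in aRG, 25.5 and 22.6 in bRG, 16.5, 14.4, 9.92, 11.5 and 5.70 in bIP, and 2.57, 2.11, 2.02 and 1.83 in N, and was lower at each step (-1.72 ± 0.20 and -2.35 ± 0.22). The one at 17.7 kb (chr10:18194035-18195358) held 1.22 CPM on average in aRG and again in bIP and 12.3, 8.42, 9.37 and 22.3 in N (3.38 ± 0.28 against bIP, adjusted p = 3.54e-10).

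Among potassium genes, a region 128.2 kb from KCNH7 (chr2B:49659478-49660616) was higher in bIP than in aRG, as was its promoter. It held 1.502, 1.06 and 2.50 CPM in aRG, 2.68 and 1.92 in bRG, 20.5, 18.4, 21.1, 13.2 and 16.0 in bIP, and 15.5, 13.8, 7.21 and 12.2 in N. No bIP or N library overlapped with radial glia, and the change from aRG to bIP was 3.36 ± 0.28 (adjusted p = 1.5e-09), or 3.95 without aRG replicate 3. For KCNQ3, a region at 77.2 kb (chr8:128266164-128266846) went from 1.83 ± 0.80 CPM in aRG to 17.8 ± 3.0 in bIP and 6.66 ± 3.28 in N. One at 57.8 kb (chr8:128285836-128286154) was likewise highest in bIP, with 0.474, 0.499 and 1.52 CPM in aRG, 4.96, 4.92, 4.51, 6.01 and 6.52 in bIP and 1.05, 1.02, 0.480 and 0.704 in N (-2.73 ± 0.29 from bIP to N). Another, 5.2 kb from the gene (chr8:128348633-128349784), stayed at 30.3, 24.7 and 29.0 CPM on average in aRG, bRG and bIP and fell to 7.68, 9.99, 5.86 and 6.85 CPM in N (-1.94 ± 0.17, adjusted p = 1.13e-09). One more, at 104.1 kb (chr8:128238818-128239907), was lower in bIP than aRG (-1.74 ± 0.21).

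A region each of the Kv1 gene KCNA2 and the Kv3 gene KCNC2 was highest in neurons, while other regions of both were lower: in N against bIP, KCNA2 had 1 higher and 1 lower of 6, and KCNC2 4 higher and 4 lower of 12. A region 12.4 kb from KCNA2 (chr1:105489684-105491108) held 0.749 to 1.57 CPM in aRG, 0.750 to 0.961 in bRG, 0.946 to 1.94 in bIP and 9.16, 9.44, 7.93 and 15.2 in N (3.01 ± 0.24 against bIP). One at 54.5 kb from KCNC2 (chr12:71058051-71059431) held 0.398 to 1.46 CPM over the progenitor libraries and 8.85, 7.54, 5.57 and 9.29 in N (3.29 ± 0.27). KCNA1, a Kv1 gene with no promoter region here, had 2 distal regions, both higher in N than bIP. In contrast, a region 30.8 kb from KCNA3 (chr1:105601904-105603630) was high in radial glia, with 36.0, 32.9 and 23.6 CPM in aRG and 23.4 and 19.4 in bRG, and low in bIP (1.84 to 7.76 CPM) and N (2.25 to 4.42 CPM). It fell by 2.61 on the log2 scale from aRG to bIP (SE 0.23, adjusted p = 2.35e-09).

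HCN4 held all 5 distal HCN regions. The one at 16.2 kb (chr15:48408537-48409487) held 1.11, 1.37 and 2.26 CPM in aRG, 2.02 and 1.36 in bRG, 3.03, 3.24, 2.08, 3.58 and 4.25 in bIP, and 12.1, 13.8, 8.89 and 12.9 in N. It rose by 1.04 ± 0.27 from aRG to bIP (adjusted p = 0.00222, and 0.197 within the second series) and by 1.87 ± 0.21 from bIP to N (adjusted p = 4.83e-08). The one at 9.5 kb (chr15:48415019-48416206) reached its level in bIP already, with means of 1.29, 1.10, 4.48 and 3.79 CPM in aRG, bRG, bIP and N. Another, at 8.7 kb (chr15:48433679-48434452), was highest in N, at 4.70 ± 1.15 CPM against 1.65 ± 0.23 in bIP.

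**Figure D4:**
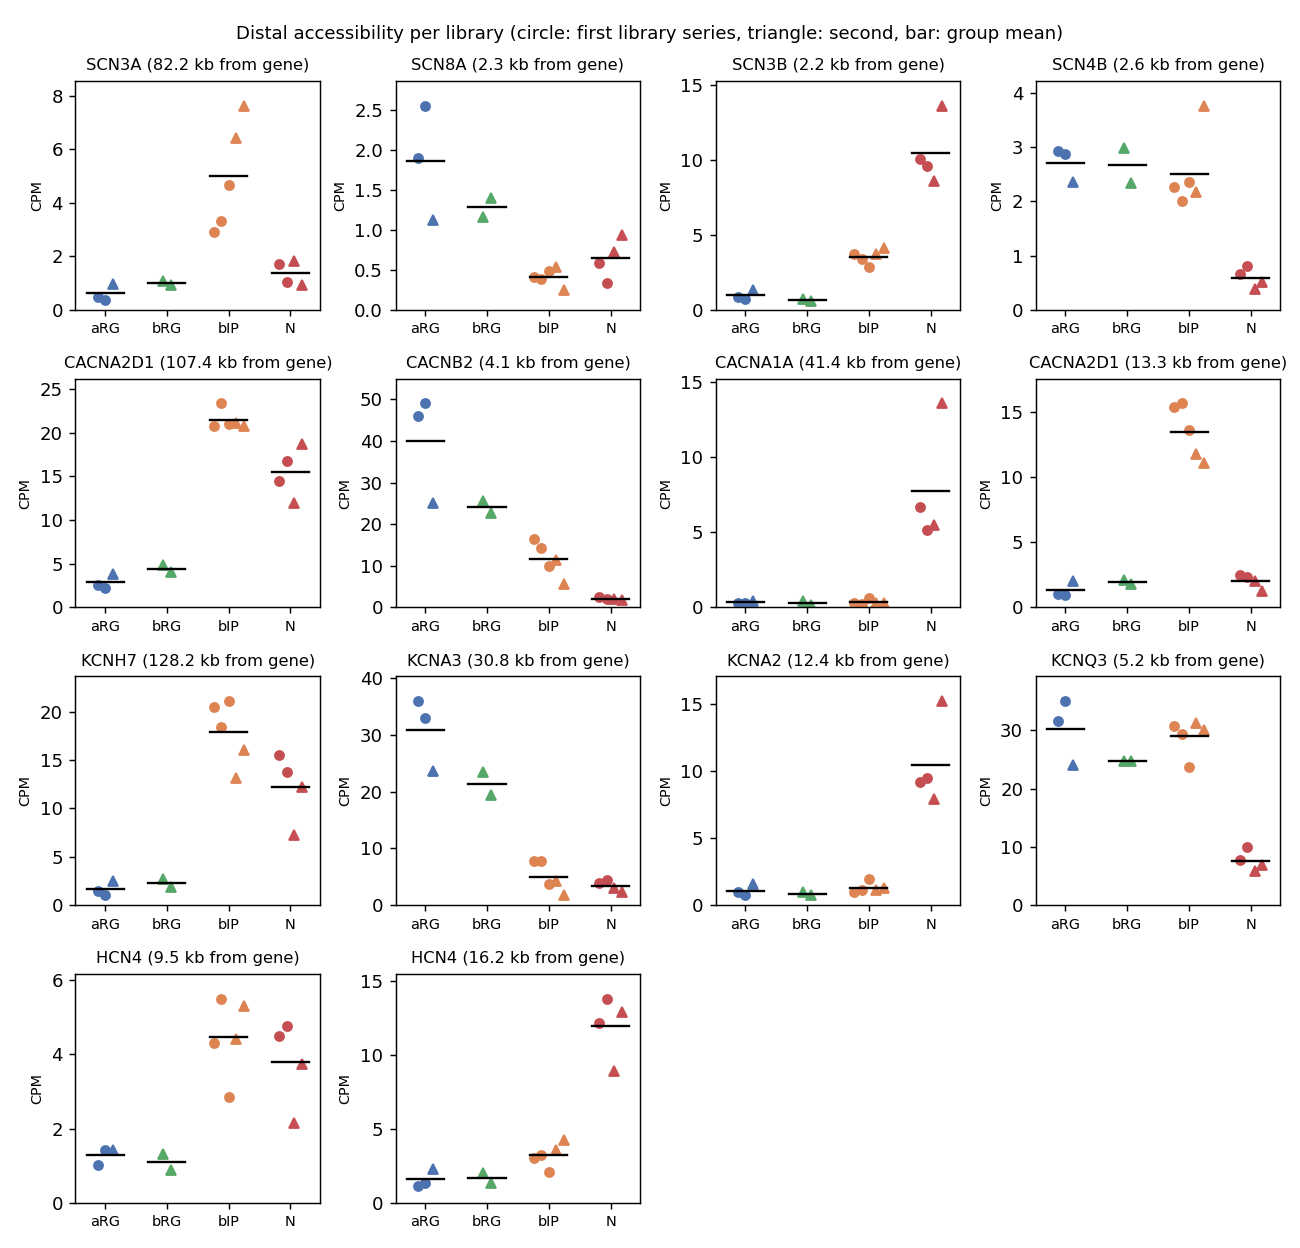
CPM of 14 distal regions in each library, the regions with the smallest p in each direction of bIP against aRG and of N against bIP for each class. Circles are the first and triangles the second library series, and a bar is the mean of a group. Regions of CACNA1A, KCNA2 and SCN3B are highest in N, those of SCN3A and of CACNA2D1 at 13.3 kb in bIP, and those of CACNB2 at 4.1 kb and KCNA3 in aRG.

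The authors also deposited 1 consensus peak set per cell type, made over libraries, so no replicate spread exists for it. The sets list no peaks on chromosomes 2A and 2B, so 43 of the member regions, those of SCN1A, SCN2A, SCN3A, SCN9A, CACNB4 and KCNH7, were not analysed there. Of the other 30 promoters, 28 were touched by an aRG peak (93.3%), 28 by a bRG peak, 29 by a bIP peak (96.7%) and 29 by an N peak, beside 72.2%, 72.6%, 71.7% and 69.8% of all promoters. Peaks of all 4 types touched 27 of the 30. CACNA1I was touched by a bIP peak alone, and CACNA2D3 by a peak of every type except aRG. Another promoter, higher in N than bIP by count, had a peak in N and none in bIP. Of 300 distal regions, aRG peaks touched 87 (29.0%), bRG peaks 87, bIP peaks 106 (35.3%) and N peaks 117 (39.0%), beside 32.4%, 31.8%, 31.7% and 33.2% of all distal regions. All 4 types touched 37 of them, N alone 39, bIP alone 25, and none 106. Of 105 distal regions higher in N than bIP by count, 37 had a peak in N and none in bIP, and 2 the reverse. Of 78 lower, 24 had a peak in bIP and none in N, and 0 the reverse. The peak sets were made over libraries of the same cell types, so they are no separate evidence for the counts. How peaks were shared between cell types was not counted over all distal regions, so these patterns describe the members alone.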

How the data were processed

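Whole-number counts per region and library, not normalized, were deposited by the authors in 1 table with gorGor6 region names, a closest gene and a distance, per the file headers; region starts and ends are given as in those names. The submitters' processing notes name MACS2 and bcl2fastq 2.20.0, and the builds hg38 and panTro6. No aligner, read counter or shift for the transposase is named in the sources used here. Per the labels' protocols, crosslinks were reversed after transposition. The deposited consensus peak sets are in narrowPeak layout, per the file headers, with a deposited score, a fold enrichment (ratio) and a −log10 q-value. The −log10 q alone was used, for a stricter subset of peaks. The sets state no build and were taken as gorGor6, since 99.98% of 15230 well-covered regions (mean count of at least 300) overlapped a peak, against 17.9% with regions moved by 50 kb.

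From 218080 regions, 13823 without a gorilla position (all counts 0) and 8 repeats were left out. The count test was edgeR 4.0.16 (R 4.3.3) with its quasi-likelihood method, after TMM scaling and filterByExpr (200931 regions kept). All 14 libraries entered 1 fit, with terms for cell type and library series. Benjamini-Hochberg adjustment covered every tested region, and 0.05 was the threshold. A ± beside a log2 fold change is its standard error, and beside a mean CPM the SD over libraries. Fold changes are the model's and can differ from ratios of mean CPM. CPM use TMM-scaled totals, and floors of 3 counts cover counting error only. Since no molecular identifiers are described, reads copied by PCR may not stand for separate molecules. On simulated counts for 198829 regions of N against bIP, 3% of 1.5-fold, 43.9% of 2-fold and 95.4% of 4-fold changes were called. Each share rests on 65 or 66 changed regions. Almost all other regions were unchanged, with 1 spread for all regions and no series effect. In the data 110850 of 200931 regions were called for N against bIP, so these shares do not give the detection rate there. DESeq2 1.42.0 was an alternative.

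The members and gene lists were chosen with earlier results of these data known. Named promoters were those with the smallest p per class in bIP against aRG and in N against bIP, those called in the rarer direction, and SCN2A, SCN3A, CACNA1C, KCNQ3 and HCN3. Named distal regions were the 2 with the smallest p per class, step and direction. Other members are named after their values were seen. All 41 symbols matched a RefSeq gene table of another gorilla assembly, from which no coordinate was used. No sequence or motif was used here. Alternatives were other scalings, filters, designs, DESeq2, single series, single libraries left out, a replicate block, the promoter distance and peak overlap. The sum of close replicate pairs was chosen after seeing the data. Marker lists were radial glia, bIP, neuron, GABAergic lineage, choroid plexus, mesenchyme, oligodendrocyte lineage (4 promoters, 31.3 to 33.3 CPM in aRG and 25.4 to 34.7 CPM in N), and endothelium with microglia (2 promoters, 10.0 to 16.4 CPM and 8.69 to 19.6 CPM).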

Additional observations from a re-analysis of the deposited data

Results flagged for a closer look

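In 124 groups of 4 or 5 libraries over 62 named regions, 10 held 1 library far from the others by Dixon's test, where chance gives about 1 in 20. N replicate 4 was far from the other N libraries at the SCN4B region at 3.4 kb (0.657 CPM), the CACNA1A promoter at 477 bp (7.27 CPM) and the KCND2 promoter (29.3 CPM), and N replicate 3 at the KCNC2 promoter (8.07 CPM). Among the bIP libraries, replicate 5 stood apart at the second SCN4B region (3.77 CPM) and the SCN2B promoter (9.08 CPM), replicate 4 at the SCN3A region at 35.1 kb (9.33 CPM), replicate 3 at the CACNA1A region at 41.4 kb (0.624 CPM) and the KCNQ3 region at 5.2 kb (23.7 CPM), and replicate 2 at the CACNA2D1 region at 107.4 kb (23.4 CPM).

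The KCNQ3 region at 77.2 kb differed between the library series in its change from bIP to N. The second series minus the first was -1.56 ± 0.33 on the log2 scale (adjusted p = 0.00368). It held 16.7, 17.3 and 14.1 CPM in bIP and 7.99 and 10.7 in N of the first series, and 18.7 and 22.3 in bIP and 4.28 and 3.71 in N of the second, so that N was lower in both.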

How the results depend on the processing

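Of 81 named results, 70 passed the threshold, and 40 of these kept direction and call in every alternative tried. Calls of 17 were lost without at least 1 library and of 30 in another alternative, most often in the second series alone (24) or with close replicate pairs summed (15). In simulated counts, where almost all regions were unchanged, 3% of 1.5-fold changes were called, a share that does not carry over to the data. The filter at 10 CPM left 33 promoters and 61 distal regions of the members to test, so its counts come from fewer regions. Shares over all regions are not given for promoters up to 3000 bp.

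For bIP against aRG, promoters higher were 3 by DESeq2's Wald test, with DESeq2 size factors, with no filter and with no series term, 8 with regions of at least 10 CPM only and with promoters up to 3000 bp, 2 with summed pairs, 10 with loess offsets and 1 in the second series. All promoters higher were 10.2% by either use of DESeq2, 9.57% with no filter and 10.3% with no series term. They were 9.46% at 10 CPM, 7.94% with summed pairs, 15.4% with loess and 6.53% in the second series. Promoters lower were 2 by either use of DESeq2, 7 at 10 CPM, 5 in the first series and with no filter, 3 with loess offsets and up to 3000 bp, and 4 with only the 2 groups fitted. Lower shares of all promoters were 21.2% by the Wald test, 20.6% with size factors and 46.3% at 10 CPM. In the first series 27.2% were lower, with no filter 26.3%, with loess 24.8% and with only the 2 groups 27.9%. Distal counts were 38 and 9 at 10 CPM, beside 41.9% and 34.3% of all distal regions. In the second series they were 73 and 23, beside 14.6% and 11.4%. For N against bIP, promoters higher were 20 at 10 CPM, 25 with loess, 6 in the second series and 19 up to 3000 bp, and lower 1 at 10 CPM, 0 in the first series, 8 up to 3000 bp, and 2 with summed pairs, loess, no series term or only the 2 groups. Distal counts at 10 CPM were 26 and 19, beside 33.2% and 40.9%. For N against aRG, promoters higher were 9 with summed pairs, 31 with loess and 6 in the second series, and lower 1 with loess, 2 with no series term or in the second series, and 9 up to 3000 bp. All promoters higher were 13.2% with summed pairs, 37.4% with loess and 11.1% in the second series. Lower were 25.5% with loess, 32.3% with no series term and 20.3% in the second series. Distal counts at 10 CPM were 37 and 12, beside 45.8% and 40.3%.

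For bIP against bRG, promoters higher were 11 with loess or up to 3000 bp and 15 with only the 2 groups, and lower 5 at 10 CPM, 2 with loess and 3 up to 3000 bp. All promoters higher were 13.4% with loess and 18.7% with only the 2 groups. Lower were 26.8% at 10 CPM and 18.4% with loess. Distal counts at 10 CPM were 32 and 8, beside 38.1% and 31.0% of all distal regions. For N against bRG, promoters higher were 12 with only the 2 groups, and lower 3 at 10 CPM, 0 with no series term, 5 up to 3000 bp, and 2 with no filter, only the 2 groups or the second series. With only the 2 groups, 13.2% of all promoters were higher and 24.9% lower. Lower were 26.8% at 10 CPM, 21.8% with no series term, 26.2% with no filter and 21.0% in the second series. Distal counts at 10 CPM were 35 and 13, beside 42.2% and 39.9%. For bRG against aRG, 1 distal region was lower with only the 2 groups, beside 0.522% of all distal regions. A peak over at least 0.5 of a region was found at 76.7% of promoters in aRG, and peaks above the median −log10 q touched 20.3%, 20.3%, 26.3% and 30.0% of distal regions in aRG, bRG, bIP and N.

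Nothing in the labels says that a replicate number marks a shared source, and the numbers were not taken as pairs: over 16 same-number pairs, 7 correlations of deviations were above 0.1 (range -0.23 to 0.27), and 3 of 14 libraries correlated best with their own number. The 7 are among the 8 same-number pairs within 1 library series. With a replicate block, promoters higher and lower were 3 and 1 for bIP against aRG, 13 and 2 for N against bIP, 0 and 0 for bIP against bRG, and 5 and 0 for N against bRG. All promoters then gave 8.56% and 17.7%, 13.6% and 20.5%, 1.43% and 0.122%, and 6.34% and 6.99%. Distal counts with the block were 12 and 0 for bIP against bRG and 66 and 25 for N against bRG. Calls fell over all distal regions too, to 2.78% and 0.318% and to 12.6% and 10.7%. KCNH5 was then -0.16 for N against bRG (adjusted p = 0.761) and CACNA1C 0.42 for N against bIP (adjusted p = 0.0362).

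Leaving out each library in turn gave, higher and lower, promoters 2 to 6 and 0 to 2 and distal regions 86 to 120 and 38 to 51 for bIP against aRG. The ranges were 9 to 13, 2 to 4, 112 to 123 and 74 to 89 for N against bIP, 10 to 15, 2 to 5, 152 to 173 and 57 to 77 for N against aRG, 1 to 8, 0 to 0, 73 to 103 and 24 to 38 for bIP against bRG, and 12 to 19, 0 to 2, 126 to 150 and 49 to 71 for N against bRG. Shares over all regions moved as well. Of all distal regions, 19.3% were higher in bIP than aRG without aRG replicate 2 and 24.9% without bIP replicate 5.

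No result that passed the threshold reversed. Log2 changes that did were small. For bIP against aRG, HCN3 was 0.11 with loess and 0.12 in the second series. CACNA1C was -0.040 by DESeq2's Wald test, -0.041 with DESeq2 size factors, -0.061 with summed pairs, -0.11 in the first series and with no filter, -0.00071 with only the 2 groups and -0.18 with the block, and -0.090 to 0.090 with each library left out. SCN2A at 0 bp was -0.0072 by the Wald test, -0.0062 with size factors, -0.090 with summed pairs, -0.077 with no filter, -0.10 with the block, and -0.18 to 0.17 with each library left out. SCN2A at 891 bp was -0.014 with size factors, -0.062 with summed pairs, -0.021 with loess, -0.087 with no filter, -0.26 with the block, and -0.32 to 0.53 with each library left out. For N against bIP in the second series, HCN3 was -0.11, CACNA1C -0.052 and SCN3A 0.15, with SCN3A 0.26 at 10 CPM, 0.38 with loess and -0.20 to 0.14 with each library left out. KCNQ3 at 433 bp was 0.092 at 10 CPM and 0.15 with loess. The cause of these differences was not tested.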
